A study of Mustela putorius furo and Mus musculus with 4 samples.

Results

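The genes described here encode proteins through which astrocytes organize synapses. They were chosen by symbol as a list of 10 members, which comprised 4 thrombospondins (Thbs1 to Thbs4), Sparc and its relative Sparcl1 (hevin), the glypicans Gpc4 and Gpc6, the bone morphogenetic protein antagonist Chrdl1, and the adhesion protein Nlgn2. Of these 10 members, 9 had a value in both species, among 13373 gene symbols shared by ferret and mouse. PolyA-selected RNA of cultured cortical astrocytes was sequenced in 2 libraries from normally pigmented sable ferrets (Mustela putorius furo) and 2 libraries from wild-type mice of the ICR strain. The cells came from ferrets of postnatal day 1 and from mice of postnatal day 1 to 3, and no genetic change or drug was applied to either group. Both groups were grown as mixed glia for 14 days in serum, shaken to remove loosely attached cells, replated in serum and then kept without serum, in medium with heparin-binding EGF-like growth factor, before RNA was harvested. Cells of several mouse pups shared a flask, whereas those of 1 ferret pup filled several flasks, and nothing states whether the duplicate libraries of a species came from separate cultures. The p-values below therefore measure only the spread between these libraries, which may be technical. In the limma tests, the spread of each gene was moderated by that of all genes tested.

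Astrocytes release proteins that set when and where neurons connect. Thrombospondins are large matrix glycoproteins that induce structurally normal but postsynaptically silent excitatory synapses through the neuronal calcium channel subunit encoded by Cacna2d1. Hevin bridges neurexin on the axon and neuroligin on the dendrite and promotes excitatory synapses, whereas the related protein SPARC opposes this action of hevin. Glypicans are heparan sulfate proteoglycans that are shed from the astrocyte surface and recruit AMPA-type glutamate receptors, and Chrdl1 drives the later switch of these receptors to a mature subunit makeup. Nlgn2 is not secreted. It is a transmembrane protein, known from inhibitory synapses, that astrocytes also use to shape their processes against neurons.

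Values are FPKM, the fragments mapped to a gene, scaled to its exon length and to all mapped fragments of the library, as the authors computed them. Species were compared with limma on log2(FPKM + 1) for the 10204 shared symbols whose mean FPKM reached 1 in either species, and a gene was called when its Benjamini-Hochberg adjusted p was under 0.05 and its absolute log2 difference above 1. Differences are given as ferret minus mouse, on that scale, and understate changes of low genes. The 9 shared members were measured on the annotation of each species, so species, gene model and culture cannot be told apart. FPKM does not give the depth of a library. Gfap, a defining marker of the labelled cell type, was at 1481 and 1522 FPKM in ferret against 1429 and 1546 FPKM in mouse astrocytes, whereas Slc1a2, the astrocytic glutamate transporter GLT-1, was near 0 in ferret (0.133 and 0.178 FPKM). Of 10 astrocyte markers, S100b was called higher and 6 were called lower in ferret, where 13.1% and 30.1% of all genes tested were. With the 4 libraries set to a common sum, Slc1a3 (-0.77) and Gja1 (-0.95) came within the limit of a call. Aldoc (1.17) moved past it. Microglial markers were at 2.93 to 3.58 summed FPKM over 10 genes in the ferret and 522 to 548 in the mouse libraries, and all 10 were called lower in ferret, with Cx3cr1 listed at 0 in both ferret libraries. Summed over 10 genes, meningeal fibroblast markers reached 109 to 124 FPKM in the ferret and 1726 to 1749 FPKM in the mouse libraries. The largest parts in mouse were Serpinf1 (630 and 653 FPKM) and Col3a1 (402 and 375 FPKM). In ferret they were Col1a2 (84.6 and 74.6 FPKM) and Col1a1 (32.2 and 28.8 FPKM), so different genes made up most of the sums.

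The synapse-organizing genes did not shift together between the species. Of the 8 members tested, Chrdl1 was called higher in ferret astrocytes, and Thbs1, Thbs2, Sparc and Gpc4 were called lower. Sparcl1 was higher in ferret by less than the limit for a call, and Thbs3 and Nlgn2 were below the mouse level by less than that limit. Among all genes tested, 13.1% were called higher and 30.1% lower, against 12.5% (1 of 8) and 50% (4 of 8) of the members. The median difference of the 8 members was -0.99, and that of all genes tested was -0.35. This lower median of all genes depended on scaling, since it was -0.01 when the 4 libraries were set to a common sum over the shared symbols, equal to the average of their sums. On that scaling 19.1% of all genes were called higher and 21.7% lower, and Sparcl1 joined Chrdl1 among the members called higher while the same 4 members were called lower. By adjusted p alone, all 8 members differed, as did 88.6% of all genes tested, and the libraries of the species did not overlap for any of the 8, as for 94.1% of all genes. Neither measure in itself set the members apart. The plot of species differences shows both scalings.

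**Figure D1:**
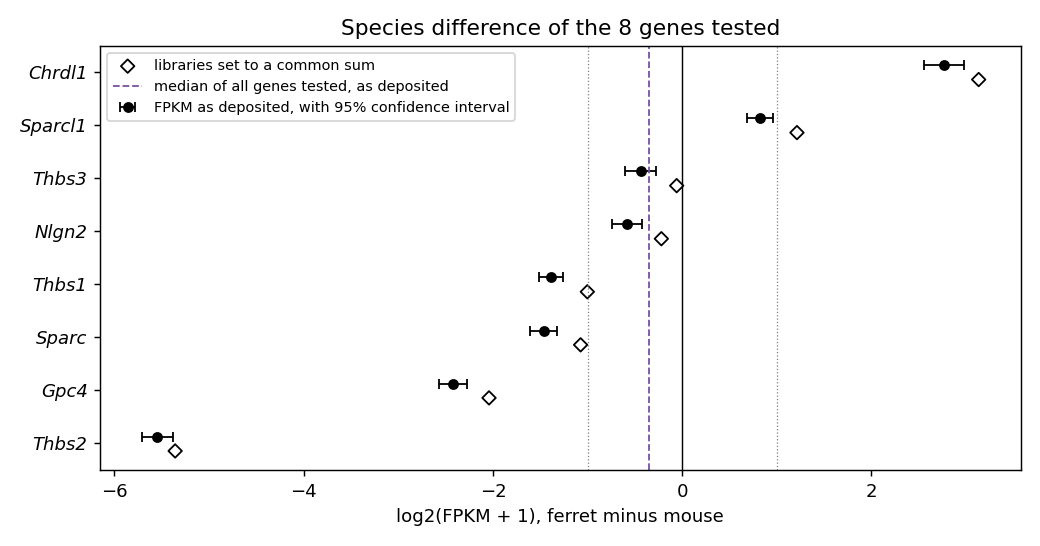
Difference in log2(FPKM + 1), ferret minus mouse, for the 8 members tested, with filled circles and bars for FPKM as deposited with its 95% confidence interval and diamonds for libraries set to a common sum. Dotted lines mark the limits of a call at 1 and -1, and the dashed line the median of all genes tested (-0.35). Thbs2 lies farthest to the left (-5.55) and Chrdl1 farthest to the right (2.76), and on rescaling Sparcl1 moves past 1 while Thbs3 comes to -0.06.

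Among the thrombospondins, Thbs2 was present in mouse and near 0 in ferret astrocytes, Thbs1 was lower in ferret, Thbs3 was not called and Thbs4 was near 0 in both. Thbs2 stood at 0.0449 and 0.0421 FPKM in ferret against 46.7 and 48.9 FPKM in mouse astrocytes (replicates 1 and 2 in each case, as in all pairs of values here). Both ferret values lay far below both mouse values, with a log2 difference of -5.55 (95% confidence interval -5.71 to -5.38, adjusted p = 8.89e-12 by limma). The difference was -8.38 with a pseudocount of 0.1 in place of 1, because the ferret level is so low. Only 0.284% of all genes tested had a more negative difference. The mouse gene occupies positions 14665500 to 14694235 of chromosome 17 (GRCm38, minus strand), where GENCODE release M21 places 21 exonic regions and no other gene.

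Thbs1, a trimeric member of the family that can induce synapses, stood at 64.9 and 63.2 FPKM in ferret against 172 and 167 FPKM in mouse astrocytes. The groups did not overlap, and mouse astrocytes had 2.65 times the mean FPKM of ferret astrocytes (log2 difference -1.39, standard error [SE] 0.056, limma adjusted p = 6.73e-09). With libraries set to a common sum, the difference was -1.003 and stood at the limit of a call. Thbs3, a member of the pentameric branch of the family, stood at 26.2 and 29.4 FPKM in ferret against 36.5 and 39.5 FPKM in mouse astrocytes. Its log2 difference of -0.44 (SE 0.073, limma adjusted p = 2.77e-04) was -0.09 relative to the median of all genes, and with libraries set to a common sum it was -0.06 (SE 0.058, limma adjusted p = 0.360). The mouse gene overlaps Mtx1 on the opposite strand, and the sources used here do not give whether strand was used in counting, so reads of these genes may not be fully separated. Thbs4 stood at 0.0485 and 0.0758 FPKM in ferret against 0.0388 and 0.0243 FPKM in mouse astrocytes, below the minimum for testing. Without that minimum its difference was 0.04 (95% confidence interval -0.01 to 0.10, adjusted p = 0.115 by limma).

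The makeup of the thrombospondin pool does not depend on the scaling between libraries. Thbs1 made up 71.2% and 68.1% of the summed thrombospondin FPKM in ferret against 67.4% and 65.4% in mouse astrocytes. Thbs3 made up 28.7% and 31.7% in ferret and 14.3% and 15.5% in mouse. Thbs2 contributed 18.3% and 19.1% in mouse but 0.0492% and 0.0454% in ferret, so that the ferret pool consisted almost entirely of Thbs1 and Thbs3. The ratio of Thbs2 to Thbs1 was 0.000691 and 0.000666 in ferret against 0.272 and 0.292 in mouse astrocytes (exact permutation p = 0.333, two-sided, the smallest that 2 against 2 libraries allow). Fibroblasts are a known source of Thbs1, Thbs2 and Sparc, and all 10 meningeal fibroblast markers were called lower in ferret, with the summed levels given above and no marker at 0 in both libraries of a species. Their part in these differences was not tested, and in bulk RNA fewer cells of a type and less RNA per cell cannot be told apart. The plot of thrombospondin transcripts shows the totals.

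**Figure D2:**
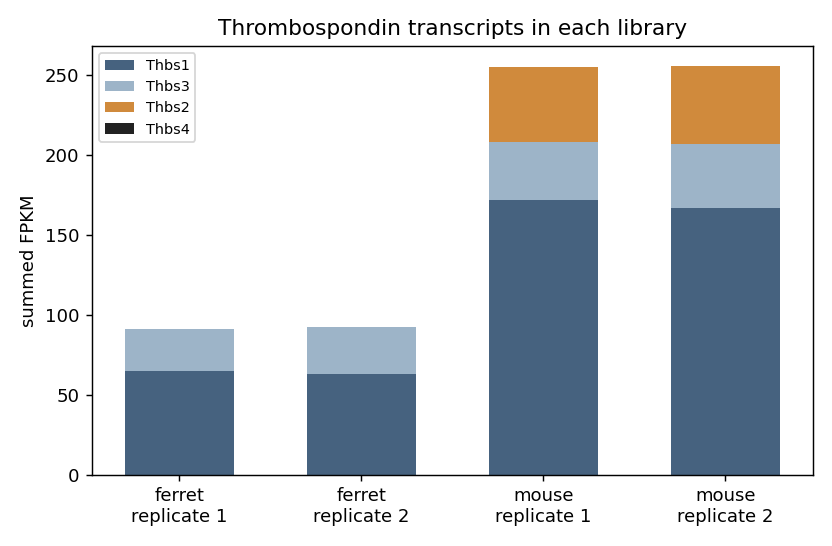
Stacked FPKM of Thbs1, Thbs3, Thbs2 and Thbs4 in each of the 4 libraries, with the bar height giving the summed FPKM on a linear axis from 0. The ferret libraries reach 91.2 and 92.7 FPKM and the mouse libraries 255 and 256 FPKM, the Thbs2 segment is visible in the mouse bars alone, and Thbs4 is too low to be seen.

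Hevin and SPARC, which act against each other at synapses, differed in opposite directions. Sparcl1 stood at 334 and 333 FPKM in ferret against 181 and 196 FPKM in mouse astrocytes, so that both ferret libraries stood above both mouse libraries. Ferret astrocytes had 1.77 times the mouse mean, a log2 difference of 0.82 (SE 0.062, limma adjusted p = 6.57e-07) that passed the p-value threshold but not the limit of 1. With libraries set to a common sum it was 1.21 and was called. Sparc stood at 540 and 515 FPKM in ferret against 1424 and 1492 FPKM in mouse astrocytes. Here both ferret libraries stood below both mouse libraries, with a log2 difference of -1.47 (SE 0.065, limma adjusted p = 1.26e-08), which became -1.07 on the same scaling. Within a library, the ratio of Sparcl1 to Sparc was 0.618 and 0.647 in ferret and 0.127 and 0.131 in mouse astrocytes. The ratio was thus 4.90 times higher in ferret, and the ratios of the species did not overlap, although 2 against 2 libraries cannot give an exact permutation p below 0.333 (two-sided). Sparc was nevertheless the more abundant of the pair in all 4 libraries. Blood vessel cells express both genes. Summed over 9 endothelial and mural markers, levels were 36.3 to 39.5 FPKM in ferret and 270 to 286 FPKM in mouse libraries. Most of each mouse sum was Acta2, at 221 and 238 FPKM there and 22.9 and 20.4 FPKM in ferret. Pecam1, Cldn5, Flt1 and Rgs5 were under 1 FPKM in all 4 libraries. Pecam1, Cdh5, Tek and Rgs5 were listed at 0 in both ferret libraries and Cldn5 in both mouse libraries. Of 5 such markers tested, Kcnj8 was called higher and the other 4 lower in ferret, and their part in the difference of Sparc was not tested. Mouse Sparc lies on chromosome 11 from 55394500 to 55423183 and mouse Sparcl1 on chromosome 5 from 104079111 to 104113733, both on the minus strand of GRCm38. An antisense gene, Gm26703, overlaps Sparcl1 on the opposite strand.

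Of the glypicans, Gpc4 was called lower in ferret astrocytes, and Gpc6 could be measured in mouse astrocytes alone. Gpc4 stood at 28.7 and 25.8 FPKM in ferret against 148 and 153 FPKM in mouse astrocytes. The groups were well apart, with 5.53 times the mean FPKM in mouse astrocytes and a log2 difference of -2.43 (95% confidence interval -2.57 to -2.28, adjusted p = 4.98e-10 by limma). The difference lay between -2.50 and -2.04 under every alternative tried. Gpc6 had 30.2 and 29.6 FPKM in the mouse libraries, where the ratio of Gpc4 to Gpc6 was 4.91 and 5.17. No row of the ferret values used here carries the symbol Gpc6, so its ferret level was not analysed here. The mouse genes lie on chromosome X from 52053021 to 52165252 (Gpc4, minus strand) and on chromosome 14 from 116925315 to 117976544 (Gpc6, plus strand).

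Chrdl1 showed the clearest excess in ferret astrocytes. It stood at 64.6 and 63.1 FPKM in ferret against 7.59 and 9.61 FPKM in mouse astrocytes. The groups did not overlap, although the mouse duplicates differed from each other more than those of any other member tested, by 0.30 on the log2 scale. Ferret astrocytes had 7.42 times the mouse mean, a log2 difference of 2.76 (95% confidence interval 2.55 to 2.97, adjusted p = 1.88e-09 by limma), and 1.57% of all genes tested had a more positive one. The difference lay between 2.61 and 3.25 under every alternative tried. Mouse Chrdl1 occupies positions 143285674 to 143394262 of chromosome X (minus strand), and 79.5% of its exonic length in GENCODE lies outside the coding sequence, the highest share among the 10 members. The length of the ferret gene model was not used here. Summed over 10 genes, oligodendrocyte lineage markers reached 170 to 189 FPKM in ferret against 70.2 FPKM in mouse libraries. Of these, Cnp had 79.9 and 92.0 FPKM in ferret and 45.6 and 47.7 FPKM in mouse and was not called. By limma, 3 of 9 tested were called higher and none lower. At an unadjusted p under 0.05, 6 were higher and 2 lower. These 2, Olig2 (-0.82) and Cspg4 (-0.47), also passed the adjusted threshold. The 6 of 8 neuron markers with values in both species summed to 50.0 to 51.0 FPKM in ferret and 52.7 to 55.6 FPKM in mouse. That sum leaves out Tubb3, without a row, and Stmn2, at 124 and 127 FPKM in mouse without a ferret row. Of 4 neuron markers tested, Syt1 was called higher in ferret (1.46) and none lower. The part of oligodendrocyte lineage cells in the level of Chrdl1 was not tested.

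Nlgn2, the one transmembrane member, stood at 9.97 and 11.0 FPKM in ferret against 16.4 and 15.9 FPKM in mouse astrocytes. Both ferret libraries were below both mouse libraries, with a log2 difference of -0.58 (SE 0.070, limma adjusted p = 2.47e-05) that was not called. Relative to the median of all genes it was -0.23, and with libraries set to a common sum it was -0.22.

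The order of the members by level also differed between the species. FPKM is a level per exon length, so members can be ranked within a species. In ferret astrocytes Sparc was highest (527 ± 18.1 FPKM, SD, n = 2), followed by Sparcl1 (334 ± 0.710, SD, n = 2), Thbs1 (64.0 ± 1.24, SD, n = 2) and Chrdl1 (63.8 ± 0.999, SD, n = 2). The values of Thbs1 and Chrdl1 overlapped, as did those of the next pair, Thbs3 (27.8 ± 2.29, SD, n = 2) and Gpc4 (27.2 ± 2.04, SD, n = 2), so neither pair can be ordered. Nlgn2 came next, and Thbs4 and Thbs2 were lowest. In mouse astrocytes the order was Sparc (1458 ± 48.2 FPKM, SD, n = 2), Sparcl1 (188 ± 10.5, SD, n = 2), Thbs1 (170 ± 3.30, SD, n = 2), Gpc4 (150 ± 3.34, SD, n = 2), Thbs2 (47.8 ± 1.52, SD, n = 2), Thbs3 (38.0 ± 2.13, SD, n = 2), Gpc6, Nlgn2, Chrdl1 and Thbs4, and no neighbours overlapped. Chrdl1 thus stood level with Thbs1 in ferret but next to last in mouse astrocytes.

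Set against the other genes of the same library, a measure that scaling cannot move, the members spanned the whole range. Sparc exceeded 99.8% and 99.7% of the shared symbols in the ferret libraries and 99.9% in both mouse libraries. Chrdl1 exceeded 95.2% and 94.7% of them in ferret but 53.0% and 57.7% in mouse astrocytes. Gpc4 exceeded 87.3% and 85.2% in ferret and 98.0% in both mouse libraries. Thbs2 exceeded 15.1% and 15.0% in ferret but 90.1% and 90.4% in mouse astrocytes. Thbs3, by contrast, held nearly the same place in both species, above 85.9% and 87.3% of the shared symbols in ferret and 86.7% and 87.6% in mouse. The plot of FPKM by library shows these levels.

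**Figure D3:**
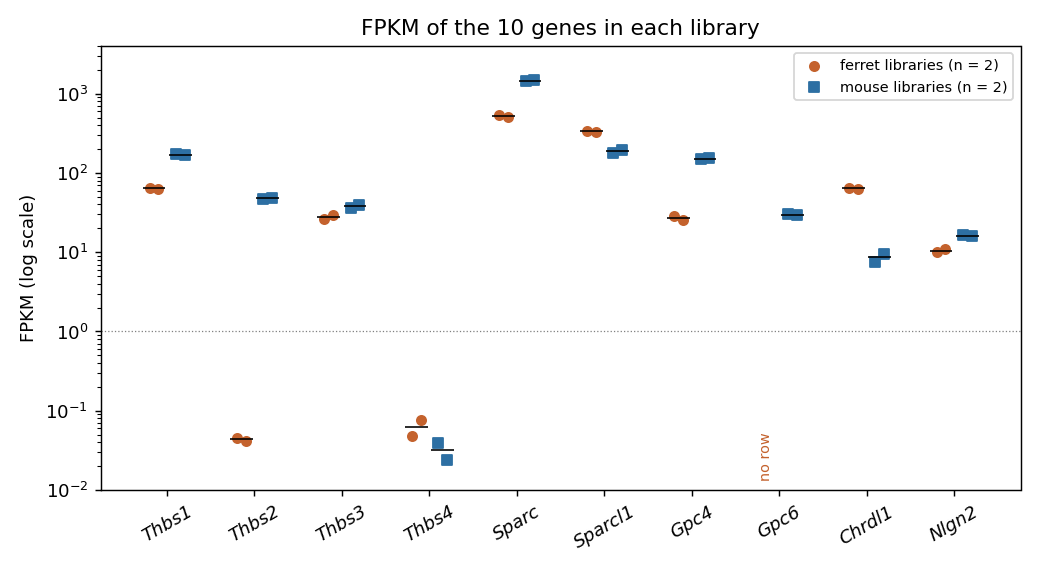
FPKM of the 10 members on a log axis, with circles for the 2 ferret libraries, squares for the 2 mouse libraries and short lines for their means. The dotted line marks an FPKM of 1. Thbs2 is under that line in ferret and near 47.8 FPKM in mouse, Thbs4 is under it in both species, Chrdl1 and Sparcl1 are higher in ferret, and Gpc6 has no ferret row.

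Relatives and binding partners of the members were described through 6 lists with 49 genes, of which 41 were tested. Of these, 5 (12.2%) were called higher and 19 (46.3%) lower in ferret astrocytes, with a median difference of -0.65. Among all genes tested these shares were 13.1% and 30.1%, which are also the background for the counts of each list, so that the share called higher was about that of all genes. The 19 lower genes did not change in number under any alternative, and no called gene changed sign under any scaling. The 5 higher genes became 3 without ferret replicate 2, when Cacna2d2 and Spock1, whose differences of 1.02 and 1.01 stood at the limit, were no longer called, and Spock1 was not called without mouse replicate 1 either. They became 6 with a pseudocount of 0.1, when Spock2 was called as well, and 7 with libraries scaled to a sum of 1000000, when Spock2 and Grem1 were.

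Within the thrombospondin list, 1 gene was called higher and 3 lower of 8 tested. Cacna2d1, the neuronal receptor of thrombospondins, was at 14.0 and 11.9 FPKM in ferret and 10.7 and 10.1 FPKM in mouse libraries and was not called (log2 difference 0.29). Cd36, a scavenger receptor that binds thrombospondin, had the largest called difference, at 0.0580 and 0.0583 FPKM in ferret and 4.28 and 3.21 FPKM in mouse libraries. The remaining family member, Comp, was under 1 FPKM in every library. In the SPARC family, 1 gene was called higher and 3 lower of 6. Fstl1 had 81.2 and 76.7 FPKM in ferret and 262 and 266 FPKM in mouse libraries, and Spock3, a proteoglycan of the family, had 0.0615 and 0.0577 FPKM in ferret and 4.43 and 4.60 FPKM in mouse libraries (log2 difference -2.38). Sparc thus had relatives that were lower in ferret as well, while Smoc2 (0.36) and Spock2 (0.58) were not called. Spock2 was at 1.27 and called higher with libraries scaled to a sum of 1000000.

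The glypican list was divided, with 3 genes called higher and 3 lower of 8 tested. Gpc1 ran opposite to Gpc4, with 60.0 and 70.9 FPKM in ferret and 20.7 and 21.5 FPKM in mouse libraries (log2 difference 1.58, adjusted p = 3.40e-08 by limma). Gpc3 had 0.440 and 0.471 FPKM in ferret and 12.5 and 13.5 FPKM in mouse libraries (-3.27), and Gpc2 was lower in ferret too (-1.49). Notum, a lipase first described as releasing glypicans from their membrane anchor, had the largest difference of the list, at 32.1 and 33.2 FPKM in ferret and 2.27 and 2.39 FPKM in mouse libraries (log2 difference 3.34, adjusted p = 9.20e-11 by limma). Adamts4, a metalloprotease linked to glypican release, was called higher in ferret as well (1.38). Of the receptor phosphatases in the list, Ptprf was called lower, at 12.1 and 12.3 FPKM in ferret and 39.8 and 41.7 FPKM in mouse libraries (log2 difference -1.66, adjusted p = 3.55e-09 by limma). Ptprs and Ptprd were not called, and the sign of Ptprs changed on rescaling (from -0.21 to 0.18).

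In the chordin list, none of 6 genes was called higher and 3 were called lower. Chrd, the founding member, was at 3.08 and 3.80 FPKM in ferret and 2.96 and 2.83 FPKM in mouse libraries and was not called, and Chrdl2 was under 0.06 FPKM in every library. Bmp1, a protease that cleaves chordin, had 6.99 and 7.37 FPKM in ferret and 48.9 and 47.6 FPKM in mouse libraries (-2.59), and the bone morphogenetic protein regulator Bmper had the largest difference of the list (-2.65). Grem1 was the 1 gene of the list to be higher at an adjusted p under 0.05 by limma (log2 difference 0.44, below the limit of a call). It was called higher with libraries scaled to a sum of 1000000. Of the neuroligins, Nlgn1 had 6.06 and 5.61 FPKM in ferret and 6.63 and 6.74 FPKM in mouse libraries, with a difference that changed sign on rescaling (from -0.17 to 0.17), and Nlgn3 had 6.84 and 6.51 FPKM in ferret and 4.49 and 4.73 FPKM in mouse libraries (0.45, not called). Nrxn2, a neurexin, was the called gene of that list (-4.20). Of 10 other astrocyte factors that act on synapses, none was called higher by limma and 6 were called lower. Nrcam alone was higher at an adjusted p under 0.05, with a difference below the limit of a call. Among the 6 lower genes, the repellent Sema3a had the largest difference (-3.49). It had 1.17 and 1.35 FPKM in ferret and 26.5 and 22.4 FPKM in mouse libraries. The part of the microglial and fibroblast markers, whose sums were higher in mouse as well, was not tested.

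**Figure D4:**
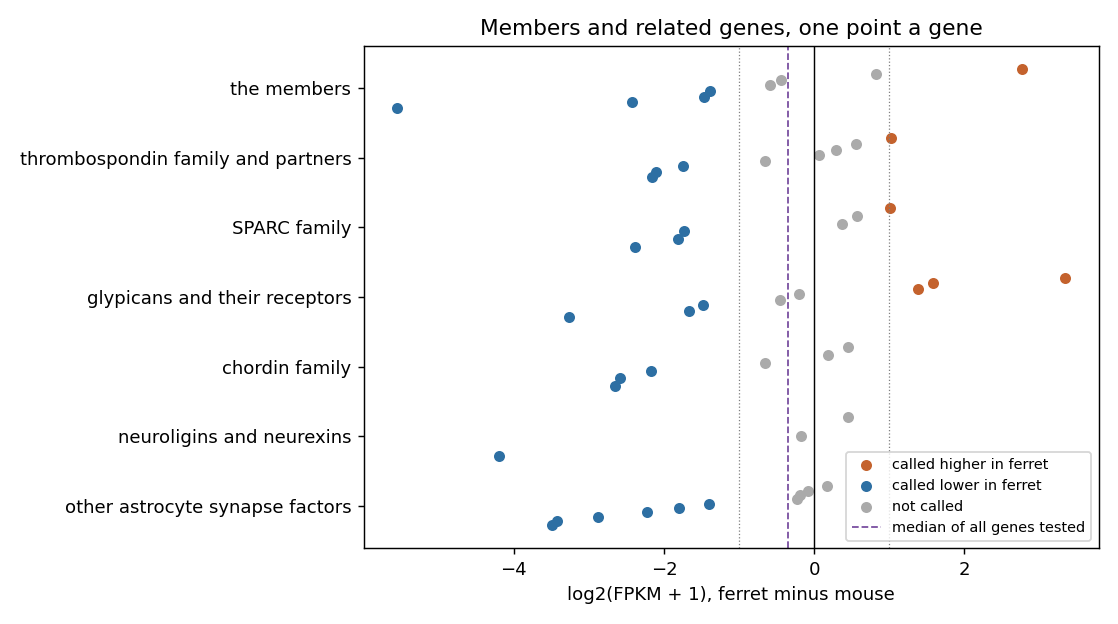
Difference in log2(FPKM + 1), ferret minus mouse, with 1 point per gene tested for the members and for 6 lists of related genes. Colours mark genes called higher, called lower or not called, and the dashed line is the median of all genes tested (-0.35). Called points lie on both sides in the glypican list, with Notum at 3.34 and Gpc3 at -3.27, and on the left alone in the chordin, neuroligin and other-factor lists.

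Genes whose levels over the 4 libraries lay nearest to those of the 2 extreme members were found by Euclidean distance of log2(FPKM + 1) among all genes tested. For Chrdl1 they were Mgst3 (distance 0.172), Sf3b5 (0.232) and Rassf4 (0.269). For Thbs2 they were Slc1a2 (0.227), Laptm5 (0.310) and Npvf (0.345). With 2 libraries of each species, this distance reflects little more than the mean level in each species.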

How the data were processed

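The authors aligned paired-end reads of stranded, polyA-selected libraries with STAR 2.7.0f to the ferret or mouse (GRCm38) genome and deposited 1 FPKM value per gene and library from Cufflinks 2.2.1, with the Ensembl annotation of each species. FPKM is normalized by the authors to mapped fragments and exon length and the deposited values hold no counts. From low values, replicate 1 was 1.17 times as deep as replicate 2 in ferret and 0.835 times in mouse.

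Symbols were matched in upper case, and for a symbol with several rows the one with the highest species mean was used (none of the members had several). FPKM + 1 was log2-transformed and tested with limma 3.58.1 in R 4.3.3, with an empirical Bayes trend, over 10204 genes. Ratios within a library were tested by exact permutation. Shared symbols summed to 227391 and 236543 FPKM in ferret and 300465 and 308121 FPKM in mouse libraries. Mouse coordinates are from GENCODE release M21, another release than that of the authors.

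The members, the related gene lists and the markers were chosen with earlier results of these data known. Named relatives are direct family members and receptors and, in each list, the called gene with the largest difference. Bmp1, Adamts4, Ptprf, Cacna2d2, Grem1 and Nrcam were named after their values were seen. So were the markers S100b, Slc1a2, Slc1a3, Gja1, Aldoc, Kcnj8, Acta2, Flt1, Cnp, Olig2, Cspg4, Stmn2 and Syt1. The same holds for the fibroblast markers Serpinf1, Col3a1, Col1a2 and Col1a1. Alternatives were another pseudocount, no filter, other scalings, other rows for a symbol, no trend, a replicate block and each library left out in turn.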

Additional observations from a re-analysis of the deposited data

How the results depend on the processing

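Of 104 alternative values for the 8 members, all kept their direction and 101 their side of the limit for a call. The 3 exceptions were Sparcl1, which was called at 1.22 with libraries scaled to a sum of 1000000, at 1.21 with libraries set to the average of their sums and at 1.13 after quantile normalization. These 3 scalings raised the members called higher from 1 to 2. They also raised the genes called higher over all genes tested from 1336 to 2197, 1954 and 2080, so that 46.4%, 46.9% and 50.0% of all calls were higher, against 30.3% as deposited. Thbs3 kept its direction, but its adjusted p by limma ranged from 1.58e-05 to 0.486. The small adjusted p of other members depended on the filter on low values. Without it, adjusted p by limma was 1.41e-04 for Thbs2, 2.34e-04 for Gpc4 and 5.36e-04 for Chrdl1. Leaving out each library in turn left every member on its side of the limit. The shared replicate numbers come from the labels alone, and deviations of same-numbered libraries did not correlate (r = 0.01 across genes, which are not independent replicates). With the replicate block, 1342 genes were called higher and 3072 lower, and Chrdl1 remained the called higher member. The FPKM values used here hold no counts, so no interval for counting error is given. The authors also reported read counts and gene lengths, which were not used here. Values under 1 FPKM cannot be ordered with any precision.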
